A study of Homo sapiens with 4 samples.

Results

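Open chromatin regions that had a peak in both empty vector libraries and in neither PHF19 overexpression library were examined in AMO1 cells, a human line grown from a plasma cell tumour and used as a model of multiple myeloma. Peaks of all 4 libraries on chromosomes 1 to 22 were merged where they overlapped, and regions were chosen by these peak calls and by height, the tallest summit having to reach at least 0.8 fragments per M (mega; fragments as the file headers count them) in both empty vector libraries. This gave 2044 of 71853 merged regions, called lost regions here, and 33239 regions of the same minimum height that kept a peak in at least 1 PHF19 overexpression library, called kept regions. The groups, each a single ATAC-seq library of transfected AMO1 cells grown in serum-containing medium, were PHF19 overexpression (the PCDH vector carrying PHF19), IFN PHF19 overexpression (the same, with a title prefix that the labels do not explain), empty vector (PCDH alone) and IFN empty vector (PCDH alone, with the prefix). The labels give neither the promoter that drives PHF19 in the vector, nor the number of cultures, nor any selection of transfected cells. With 1 library per group nothing was tested, and each interval covers counting error only.

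ATAC-seq uses the Tn5 transposase to cut and tag open DNA, so that promoters and enhancers in use stand out as peaks. PHF19 is a Polycomb-like protein that recruits Polycomb repressive complex 2 to CpG-rich DNA, where the complex methylates histone H3 at silent genes, and it is highly expressed in aggressive myeloma. Enhancers, the distal elements that set cell identity, often lie inside introns or far from genes and are more variable between cell states than promoters. In a bulk library, fewer cells with an open site and a less open site in every cell cannot be told apart.

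Depth was 18.2 M fragments for PHF19 overexpression, 16.4 M for IFN PHF19 overexpression, 27.4 M for empty vector and 65.9 M for IFN empty vector. The deepest, IFN empty vector, is also the one whose file header names another project folder. Both PHF19 overexpression libraries, and neither empty vector library, held a 335 bp peak inside PHF19 with 144 and 120 fragments at the summit (7.90 and 7.33 per M). Plasma cell markers were the nearest or an overlapped gene of 57 regions of the minimum height in both empty vector libraries over 8 genes. B cell markers had 30 over 9 genes, T and NK cell markers 14 over 10, myeloid markers 7 over 7, and stromal and epithelial markers 26 over 8.

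5 promoter windows that lost regions overlap are printed first, since most lost regions lie away from promoters and the few at promoters differ in sequence from those kept. MBNL2 and SLC22A23 had large margins over the calling limit, NDRG4 was the tallest lost region at an annotated start, PTPRC stands for the lymphoid genes, and TRAF3 for the small CpG-rich minority. PTPRC was picked after its values were seen. The sequences are from RefSeq on GRCh38.p14, 250 bases before to 50 after a transcript start, 5′ to 3′ on the strand of the gene, and capitals mark matches to any of the 11 motifs searched.
MBNL2: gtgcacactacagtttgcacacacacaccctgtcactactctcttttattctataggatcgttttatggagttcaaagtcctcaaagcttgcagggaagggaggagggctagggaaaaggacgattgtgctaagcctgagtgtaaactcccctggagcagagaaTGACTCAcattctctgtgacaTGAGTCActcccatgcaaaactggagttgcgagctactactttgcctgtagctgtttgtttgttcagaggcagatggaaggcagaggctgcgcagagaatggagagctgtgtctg
SLC22A23: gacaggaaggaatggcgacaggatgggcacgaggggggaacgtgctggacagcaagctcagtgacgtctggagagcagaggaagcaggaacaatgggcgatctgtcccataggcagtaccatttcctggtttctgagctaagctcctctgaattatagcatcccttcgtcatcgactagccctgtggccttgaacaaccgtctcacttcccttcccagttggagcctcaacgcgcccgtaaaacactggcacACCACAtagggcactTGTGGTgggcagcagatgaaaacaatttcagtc
PTPRC: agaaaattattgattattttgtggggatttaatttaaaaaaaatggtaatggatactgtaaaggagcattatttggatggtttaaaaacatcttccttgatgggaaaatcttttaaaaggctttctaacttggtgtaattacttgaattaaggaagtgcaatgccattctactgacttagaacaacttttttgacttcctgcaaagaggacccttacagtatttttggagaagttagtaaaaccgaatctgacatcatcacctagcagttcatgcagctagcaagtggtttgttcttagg
NDRG4: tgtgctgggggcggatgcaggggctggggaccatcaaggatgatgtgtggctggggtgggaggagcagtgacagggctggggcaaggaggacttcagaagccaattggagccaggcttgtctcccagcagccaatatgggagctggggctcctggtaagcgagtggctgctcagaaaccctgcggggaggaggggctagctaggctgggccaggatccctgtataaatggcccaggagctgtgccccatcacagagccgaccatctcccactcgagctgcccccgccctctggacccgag
TRAF3: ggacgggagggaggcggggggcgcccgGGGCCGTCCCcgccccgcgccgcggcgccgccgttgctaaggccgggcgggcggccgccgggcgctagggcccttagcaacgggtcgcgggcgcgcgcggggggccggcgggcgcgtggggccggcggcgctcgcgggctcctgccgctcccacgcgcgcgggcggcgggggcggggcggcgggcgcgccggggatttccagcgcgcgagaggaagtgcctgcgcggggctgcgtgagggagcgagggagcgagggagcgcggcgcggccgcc
The windows lie at chr13:97141584-97141883 for MBNL2 (plus strand), chr6:3324101-3324400 for SLC22A23 (minus), chr1:198638790-198639089 for PTPRC (plus), chr16:58499893-58500192 for NDRG4 (plus) and chr14:102777199-102777498 for TRAF3 (plus). The MBNL2 window holds the AP-1 letters TGACTCA and TGAGTCA from bases 165 and 186, before the start at base 251. Lost regions covered all 300 bases of the MBNL2, PTPRC and NDRG4 windows and 274 of TRAF3, with its start and its letters. SLC22A23 holds the RUNX letters on opposite strands from bases 253 and 268, but the lost region there covered only the 133 bases farthest before the start, so that neither the start nor these letters lie in it. The only capitals in TRAF3 are NF-kappaB letters from base 28, and PTPRC and NDRG4 hold none of the 11 motifs. CpG pairs numbered 4 in MBNL2, 11 in SLC22A23, 1 in PTPRC, 7 in NDRG4 and 61 in TRAF3.

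Of the 35283 regions with a peak and the minimum height in both empty vector libraries, 2044 or 5.79% lacked a peak in both PHF19 overexpression libraries. Since the absence of a peak chose these regions, the share is a description. PHF19 overexpression alone lacked 3390 of them (9.61%) and IFN PHF19 overexpression 3166 (8.97%), so the lost regions make up 60.3% of the first set and 64.6% of the second. Without the height minimum, 13.3% of 46445 regions were absent from both. The mirrored rule, a peak and the same height in both PHF19 overexpression libraries and none in either empty vector library, took 127 of 32204 regions (0.394%), in lists that are deeper on the empty vector side.

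Lost regions were low peaks for the most part. Height was part of the rule, and a low peak misses a call more easily, so this too is a description. Their median height was 1.24 fragments per M in the empty vector library and 1.29 in the IFN empty vector library, against 3.07 and 2.94 for kept regions, and 10% of them exceeded 2.59 and 2.65. The median length was 708 bp, against 1124 bp for kept regions. At the threshold itself, the lost regions near EPHB2, TUT4 and INKA2 had 22 fragments in the empty vector library (0.804 per M), while regions near LUZP1 and ATP1A4 stayed just outside with 52 fragments in the IFN empty vector library (0.789 per M).

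**Figure D1:**
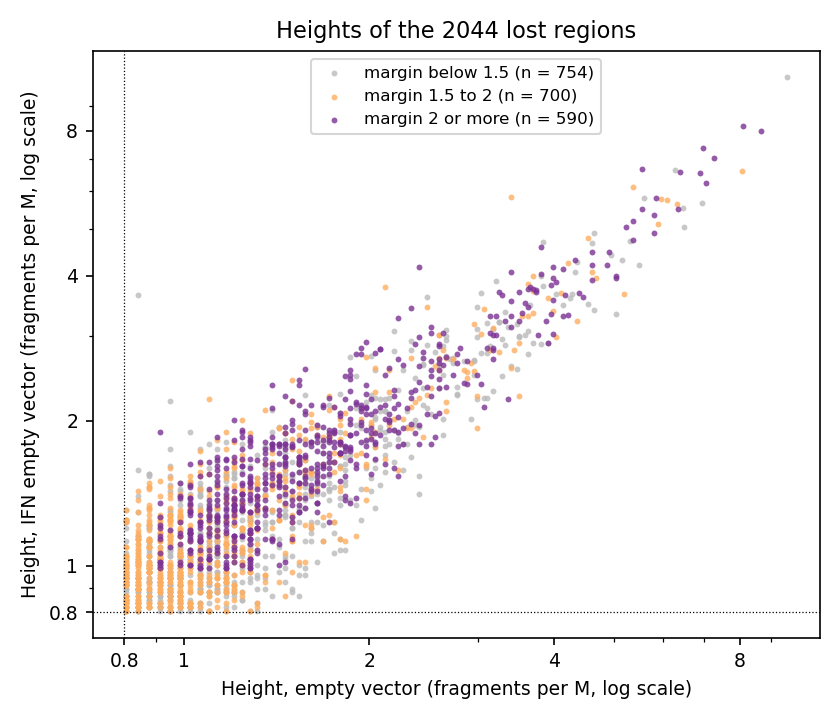
Height of each of the 2044 lost regions in the empty vector library (x axis) and the IFN empty vector library (y axis), in fragments per M on log scales, coloured by the margin over the calling limit. Dotted lines mark the minimum of 0.8, and most points lie in the lower left, with medians of 1.24 and 1.29.

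A height minimum does not by itself make a peak callable at lower depth, because MACS2 sets each peak against a local background. That background was recovered from the deposited pileup and fold enrichment, and it returned the deposited −log10 p within 0.001 in 100% of the peaks compared. These were the peaks with a −log10 p under 300; the 126, 120, 980 and 5654 peaks at or above it in PHF19 overexpression, IFN PHF19 overexpression, empty vector and IFN empty vector were not compared. For each region the fragments expected at unchanged height in a PHF19 overexpression library were divided by the number required for a call there, and the smaller quotient of the pairs is called its margin. The margin assumes an unchanged background per M and leaves out the minimum peak length of the caller. Of the 2044 lost regions, 1879 had a margin of at least 1, 1290 of at least 1.5, 590 of at least 2, 75 of at least 3 and 16 of at least 4. The median was 1.70, against 2.91 for kept regions.

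The share of regions lost fell as the margin grew. A loss is a failure to reach the calling limit from which the margin is measured. Such a fall is thus partly built in, and the shares are a description. It was 48.2% of 342 regions at margins below 1 and 23% of 2563 between 1 and 1.5. From 1.5 to 2 it was 11.4% of 6133, from 2 to 3 it was 5.01% of 10272, from 3 to 4 it was 0.842% of 7005, and from 4 up it was 0.178% of 8968 (exact binomial 95% interval 0.102 to 0.290). Fold enrichment over the local background enters the margin, so it is no separate measure. By fold, 45.7% were lost below 2-fold and 0.865% at 10-fold or more. A fold under 4 in either empty vector library was found in 603 lost regions (29.5%), against 6.26% of kept regions. Lost regions of small margin more often lay near a called peak. A PHF19 overexpression peak lay within 10000 bp of 83.4% of the 754 with a margin below 1.5. For the 590 with a margin of at least 2 the share was 36.1%. The local background is also taken over a window of 10000 bp, so a nearby peak can raise it and lower the margin.

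**Figure D2:**
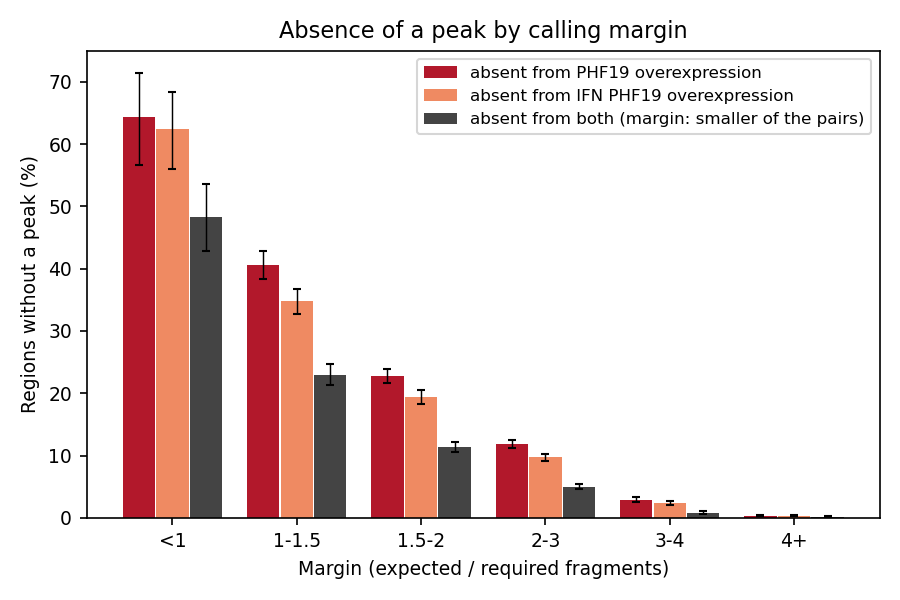
Share of regions without a peak in PHF19 overexpression, in IFN PHF19 overexpression and in both (y axis, %), by margin class (x axis, expected over required fragments); for the single libraries the margin is that of their own pair, and bars carry exact binomial 95% intervals. The share absent from both is 48.2% below 1 and 0.178% from 4 up.

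The lost regions with the largest margins, chosen after their values were seen, lay away from gene ends except those at CELA2A and MBNL2 and one inside EIF2D. The region inside EIF2D lay 476 bp from an end of RASSF5. The first by margin, near FAM72D on chromosome 1, has near-identical gene copies and its reads may be split among them, so it is not described further. How uniquely reads can be placed was not measured for this or any other lost region. A region inside AKAP13, a scaffold for protein kinase A, at chr15:85430156-85431058, had no peak in either PHF19 overexpression library, against 98 fragments in empty vector (3.58 per M, exact Poisson 95% interval 2.91 to 4.36) and 232 in IFN empty vector (3.52 per M). At that height 65.3 and 57.6 fragments would have been expected in PHF19 overexpression and IFN PHF19 overexpression, where 14 and 13 sufficed for a call, a margin of 4.43. Its own neighbours were somewhat low too: 11 shared regions within 250 kb had a median log2 ratio of -0.33 and -0.45.

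FMNL2, a formin that builds actin filaments, held an intragenic lost region at chr2:152558156-152559546 with 147 and 313 fragments in the empty vector and IFN empty vector libraries (5.37 and 4.75 per M) and a margin of 4.32, and its 3 shared neighbours were at 0.05 and -0.01. These few neighbours stood near the median of all shared regions. Near USP6NL, a GTPase-activating protein for Rab5, a region 52189 bp from the gene end had 134 and 295 fragments and a margin of 4.31. TRIO, a Rac exchange factor, had 138 and 261 fragments at chr5:14264414-14265076 and a margin of 4.05. IGF1R, the receptor for insulin-like growth factor and a survival receptor of myeloma cells, had 126 and 278 fragments inside the gene (4.60 and 4.22 per M), a margin of 3.84 and neighbours at 0.01 and 0.00. CD244, an activating receptor of natural killer cells, had 118 and 284 fragments and a margin of 3.71. PBRM1, a subunit of the PBAF chromatin remodeller, had 91 and 212 fragments and a margin of 4.05.

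Not every large margin came with distance from other peaks. The region inside RAG1, a recombinase of antigen receptor genes, had 51 and 161 fragments and a margin of 4.25, but an IFN PHF19 overexpression peak lay 318 bp away. One 815482 bp from TRIB2 on chromosome 2 had 152 and 440 fragments (5.55 and 6.68 per M) and a margin of 3.89, with a PHF19 overexpression peak at 1013 bp. Both thus had a called peak of a PHF19 overexpression library close by. In all, 121 lost regions (5.92%) had a PHF19 overexpression peak of either library within 1000 bp.

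**Figure D3:**
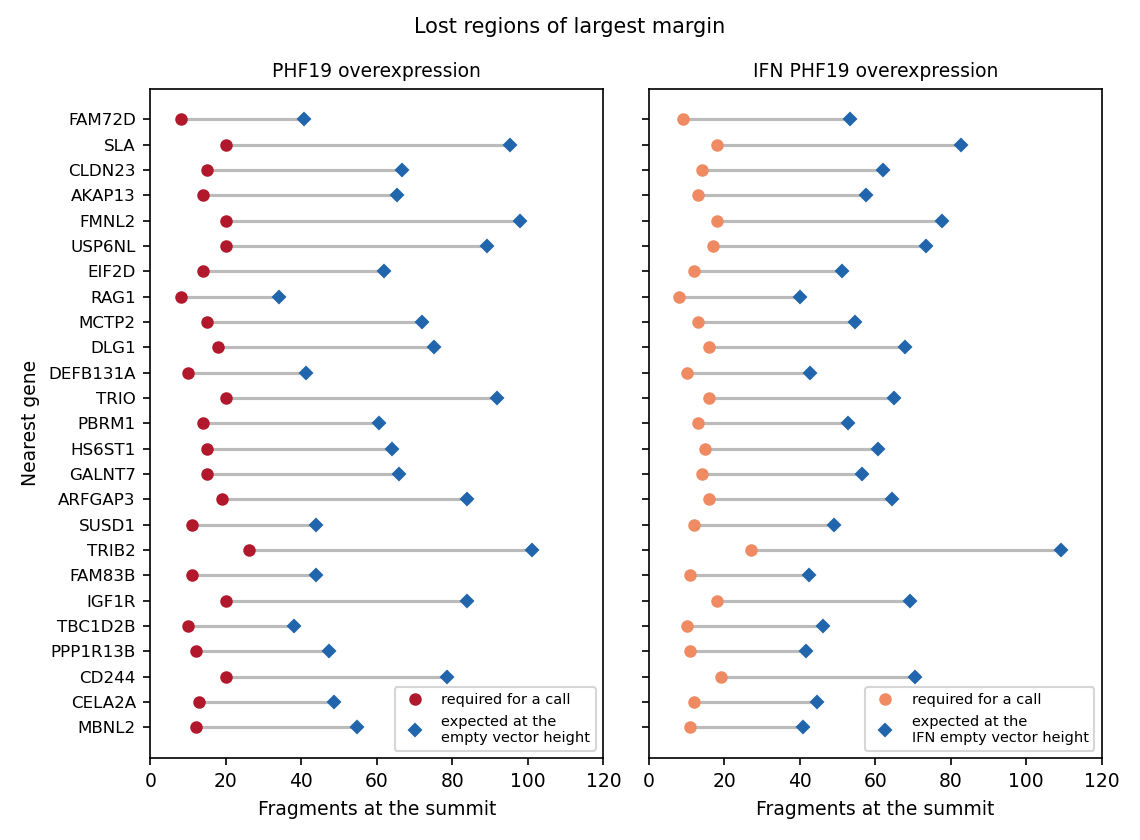
Fragments at the summit that a PHF19 overexpression library (left panel) or the IFN PHF19 overexpression library (right panel) would need for a call (circles) and would be expected to have at the height of its own empty vector library (diamonds), for the 25 lost regions of largest margin, named by nearest gene. All 25 diamonds lie at more than 3 times their circle, as margins run from 3.70 to 5.08.

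Of the 25 tallest lost regions, only the one near TRIB2 was also among the 25 of largest margin, and many stood on a high local background. The tallest, inside TNIP1, an inhibitor of NF-kappaB signalling, had 261 fragments in empty vector and 681 in IFN empty vector (9.54 and 10.3 per M), yet its fold enrichment was 2.02 and 2.49, its margin 1.42, and a PHF19 overexpression peak lay 1648 bp away. IRS1, the insulin receptor substrate, and GRK6, a kinase that silences G protein-coupled receptors, had margins of 1.11 and 1.12 at heights of 6.47 and 6.50 per M in empty vector. Others were both tall and well above the limit. BTG4, an oocyte regulator of mRNA decay, had an intragenic lost region with 199 and 464 fragments (7.27 and 7.04 per M), a fold of 7.27 and 6.96 and a margin of 3.49. PPARGC1B, a coactivator of mitochondrial genes, had 175 and 433 fragments and a margin of 3.33. A site 528 bp from an end of HYAL2, a hyaluronidase, had 191 and 486 and a margin of 2.96. IKZF3, the Aiolos transcription factor of B and plasma cells that immunomodulatory drugs degrade, had 237 and 526 fragments 181 bp from a gene end, a margin of 2.08 and a PHF19 overexpression peak 1386 bp away. The others of the 25 lay nearest to EEIG1, UPP1, PMF1, PTP4A2, CASD1, BHLHE40, TRIB1, SH2B2, CEP68, PKM, SLC9A8, STK24, KCNN3 and RGS16, besides TXK, FCRL5 and NDRG4. Their margins ran from 1.42 near PKM, the glycolytic pyruvate kinase, to 2.91 near SLC9A8, a sodium and proton exchanger.

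Lost regions lay away from gene ends. Of the 2044, 121 (5.92%, interval 4.94 to 7.03) reached within 1000 bp of an end of a protein-coding gene, against 31.3% of kept regions, whose interval of 30.8 to 31.8 does not overlap. Another 1008 (49.3%) lay elsewhere inside a gene, against 34.5%, and 915 (44.8%) between genes, against 34.1%. The median distance to a gene end was 22942.5 bp, against 9435 bp, and 32.6% lay more than 50000 bp away, against 21.3%. Most of this went with height: among regions whose smaller height was under 2 per M, 5.18% of the 1739 lost and 9.76% of the 12701 kept lay at gene ends, and 45.9% and 46.5% lay between genes. The intervals for gene ends, 4.18 to 6.32 and 9.24 to 10.3, still did not overlap, but the limit does not match the sets. Under it the median smaller height was 1.06 per M for lost and 1.24 for kept regions. The median margins were 1.69 and 1.998. At a height minimum of 2 the median distance of lost regions was 8559 bp.

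**Figure D4:**
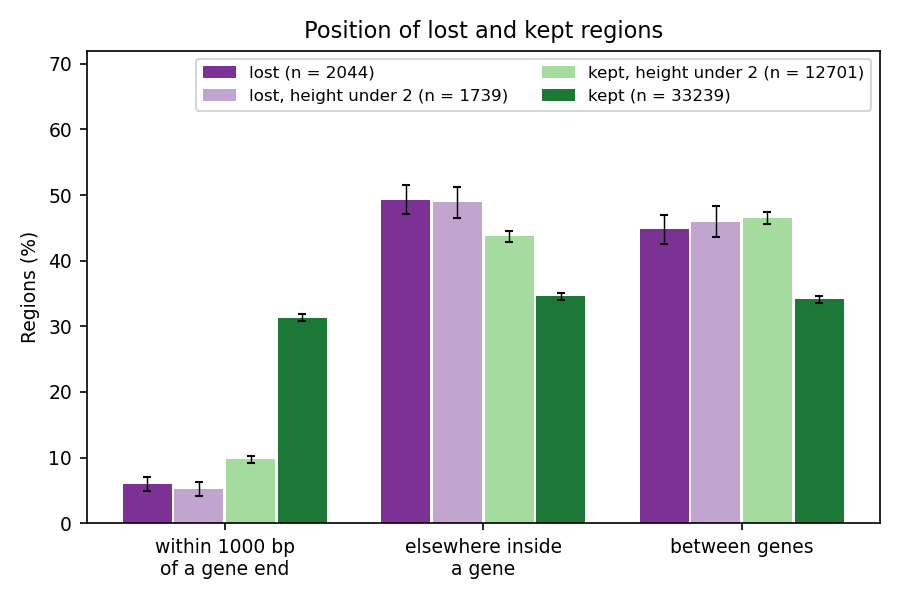
Share of regions (y axis, %) within 1000 bp of a gene end, elsewhere inside a gene and between genes, for lost regions, lost regions with a smaller height under 2 per M, kept regions under the same limit and all kept regions, with exact binomial 95% intervals. Gene ends hold 5.92% of lost and 31.3% of kept regions, or 5.18% and 9.76% under the height limit.

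The promoter windows that lost regions overlapped were CpG-poor. There were 90 of them, some from overlapping isoforms or non-coding transcripts, of which 77 had the start and 55 had every base inside a lost region, and kept regions overlapped 14404 others. CpG-rich promoters usually belong to constantly active genes and to developmental genes, and CpG-poor ones to tissue-restricted genes. The CpG content relative to base composition had a median of 0.34 in windows of lost regions (rank-based interval 0.29 to 0.43), against 0.84 in those of kept regions. Only 15 of the 90 (16.7%) were CpG-rich, with a GC content of at least 55% and a ratio of at least 0.65, against 74.9% of windows of kept regions and 41.8% of all 34943. Under the height limit of 2 the medians were 0.35 for 62 windows of lost regions and 0.69 for 1119 of kept regions, and the CpG-rich shares 17.7% and 48.0%. Under that limit the gap between lost and kept was smaller, with intervals of 0.29 to 0.43 and 0.65 to 0.71 for the medians.

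The named promoters show both kinds. PTPRC encodes CD45, the phosphatase of all white blood cells; its start at chr1:198638404-198640004 had no peak in either PHF19 overexpression library, against 42 fragments in empty vector and 96 in IFN empty vector (1.53 and 1.46 per M), with a margin of 1.70 and shared neighbours at -0.58 and -0.87. These medians were low in both pairs but rest on only 4 shared regions within 250 kb. MBNL2, a splicing factor, had 82 and 164 fragments (2.996 and 2.49 per M) and a margin of 3.70, with its neighbours at 0.14 and -0.28. SLC22A23, an orphan member of the organic ion transporter family, had 58 and 164 fragments and a margin of 2.97 in a lost region just upstream of an internal start. NDRG4, a cytoplasmic protein best known from heart and brain, had 222 and 540 fragments (8.11 and 8.19 per M) at an internal start and a margin of 2.51. These 3 lost regions were all well above the calling limit. FGR, a Src family kinase, had 107 and 191 fragments and a margin of 2.06, and LTA, the cytokine lymphotoxin alpha, 78 and 168 and a margin of 1.74. S1PR4, a sphingosine phosphate receptor of lymphocytes, had 110 and 197 fragments and a margin of 1.96. RHOH, a blood cell GTPase, had 138 and 220 with a margin of 1.09, and TRAF1, an adaptor of tumour necrosis factor receptors, 53 and 141 with a margin of 1.10. At TRAF3, a brake on alternative NF-kappaB signalling, the lost region of 503 bp had 93 and 170 fragments and a margin of 1.84, and a separate PHF19 overexpression peak lay 220 bp away. The nearest IFN PHF19 overexpression peak was 1933 bp away.

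Of the motifs searched on both strands of the promoter windows, AP-1 (TGANTCA), RUNX (TGTGGT) and E-box (CAGGTG or CAGCTG) letters were held by larger shares of the windows of lost than of kept regions. AP-1 letters were in 13 of 90 (14.4%, interval 7.92 to 23.4), against 4.27% for kept regions and 7.72% of all windows. RUNX letters were in 24.4%, against 9.49% and 13.1%, and E-box letters in 53.3%, against 31.9% and 34.5%. Under the height limit of 2, the shares were 19.4% and 8.13% for AP-1, 19.4% and 11.9% for RUNX, and 51.6% and 36.6% for E-box, and the RUNX interval for lost regions, 10.4 to 31.4, then included the share of kept regions. Octamer letters (ATGCAAAT) were also in a larger share, 5 of 90 (5.56%, interval 1.83 to 12.5), against 1.37% and 1.77% of all windows. Under the height limit they were in 8.06% (2.67 to 17.8), against 1.43%. In windows of 200 bp they were in 2.22%, and the interval of 0.270 to 7.80 included the 0.861% of kept regions. NF-kappaB letters were in 14.4% (7.92 to 23.4), against 9.78% and 7.58%, and the interval included the share of kept regions. ETS letters (CCGGAA) went the other way, in 15.6%, against 30.2% and 17.2% of all windows, and under the height limit in 16.1%, against 16.7%. The letters AGATAA, read by GATA factors, were in 6 of 90 (6.67%, interval 2.49 to 13.9), which includes both the 4.38% for kept regions and the 10.4% of all windows, and under the height limit in 6.45%, against 7.24%. MEF2 letters were in 3.33% (0.693 to 9.43), against 1.85% and 2.74%, and under the height limit in 0%, against 1.43%. Interferon response letters were in 3.33% (0.693 to 9.43), against 2.79% and 3.57%. Neither the ETS-IRF composite nor the CTCF core matched any of the 90, which allows shares up to 4.02% by the exact interval. CpG-poor windows also differ in base composition, which was not matched, and a match is not a bound site. Overlapping windows were counted separately, so a match can count more than once and the intervals may be too narrow. Matches were counted over all 300 bases, also where a lost region covered only part of a window. Distal regions, where most lost regions lie, could not be searched without a genome.

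Gene lists of myeloma and Polycomb biology, chosen with earlier results of these data known, each held few lost regions. Plasma cell genes had 6 among 98 regions (6.12%, interval 2.28 to 12.9), close to the 5.79% of all regions. IRF4, a transcription factor that myeloma depends on, had a lost region 11417 bp from its end with 41 and 118 fragments in the empty vector and IFN empty vector libraries (1.498 and 1.79 per M), a fold of 8.31 and 10.5 and a margin of 2.48. PRDM1, the Blimp-1 repressor that drives plasma cell differentiation, had 3, of which the one 93745 bp away had 54 and 156 fragments and a margin of 2.997 and the other pair margins of 1.83 and 1.24. FCRL5, a plasma cell surface receptor, had 159 and 353 fragments and a margin of 2.51, with a PHF19 overexpression peak 989 bp away. The one near SDC1, which encodes CD138, had a fold of 1.44 and a margin of 0.92.

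Polycomb complex genes had 3 among 74 regions (4.05%). EED, the subunit that reads the mark of Polycomb repressive complex 2, had a pair with 27 and 26 fragments in empty vector and margins of 1.80 and 1.92, and CBX7, a reader in Polycomb repressive complex 1, had 127 and 323 fragments and a margin of 1.34. Developmental transcription factors kept silent by Polycomb had 1 among 45 (2.22%), a site 155608 bp from POU3F2, a neural factor, with 27 and 98 fragments and a margin of 2.25. Interferon-stimulated genes had 2 among 31 (6.45%, interval 0.791 to 21.4). The one near OASL, an antiviral synthetase-like protein, had a margin of 2.33, and the one at IRF1, an interferon response factor, a margin of 0.86. NF-kappaB genes had 1 among 54 (1.85%, TRAF3) and adhesion and homing genes 1 among 43 (2.33%, near CXCR4, margin 1.60). AP-1 genes had 3 among 48 (6.25%), near JUN, JUND and FOSB, with margins of 1.88, 1.09 and 1.03. Among markers, plasma cells had 5 of 57 (8.77%, interval 2.91 to 19.3) and T and NK cells 2 of 14 (14.3%, 1.78 to 42.8; CD2 and LCK, margins 1.49 and 1.56). Stroma and epithelium had 1 of 26 (3.85%, PDGFRB), and B cells 0 of 30 and myeloid cells 0 of 7, which allow up to 11.6% and 41.0%. The intervals of all these lists include the 5.79% of all regions.

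Lost regions were scattered, with a few dense groups. They had 1665 nearest genes, 1386 of which had 1 lost region alone, and 1538 lost regions stood alone or in pairs. The remaining 506 formed 135 groups of 3 or more with gaps of at most 250 kb, 9 of them with 6 or more. Kept regions were not grouped in this way, so these counts have no background beside them. Each group begins and ends at a lost region. The lost share inside a group is therefore raised by how it was formed, and over all regions it was 5.79%. By chromosome the lost share ran between 4.05% on chromosome 8 and 7.08% on chromosome 5. Those described here lie on chromosomes 4, 2, 5, 8 and 15.

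The largest group spanned chr4:47807193-49181503, with 24 lost of 65 regions along CORIN, TXK, TEC, SLAIN2, SLC10A4, FRYL, OCIAD2 and CWH43. TXK and TEC are Tec family tyrosine kinases of lymphocytes, CORIN is a serine protease that activates natriuretic peptide, and FRYL is a large furry-like protein. TXK and FRYL were the nearest gene of 7 lost regions each. The region at an end of TXK, chr4:48064839-48067891, was the tallest, with 152 and 363 fragments in empty vector and IFN empty vector (5.55 and 5.51 per M) and a margin of 2.51. One inside TEC had 77 and 187 fragments and a margin of 2.58. Only 3 of the 24 had a margin of at least 2, and 10 were below 1.

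Regions of this stretch that kept peaks were low as well. The log2 ratio of heights used here is relative to the median of all 34809 regions shared by the 4 libraries, which was -0.11 for PHF19 overexpression against empty vector and 0.14 in the IFN pair. Over 29 shared regions the median was -1.18 for PHF19 overexpression and -1.17 for IFN PHF19 overexpression, and 28 of 29 lay below 0 in each pair. The shared region at the SLAIN2 gene end had 41.5 per M in PHF19 overexpression and 39.3 in IFN PHF19 overexpression, against 119 in empty vector and 80.3 in IFN empty vector. At the TEC gene end the heights were 32.4 and 33.7 with PHF19 overexpression and its IFN library, against 88.5 and 59.2, and at NFXL1, a zinc finger gene, 26.8 and 24.98, against 73.2 and 57.0. The exception was a region at an end of CNGA1, a cyclic nucleotide-gated channel, at 0.17 and 0.51. In the 1 Mb before the group, 11 shared regions had medians of 0.64 and 0.40, yet the last of them, inside CORIN at -19.96 kb from the first lost region, was at -2.28 and -1.70. No shared region lay in the 1 Mb after. The lowering of the whole stretch moved with the loss of its low peaks, and its part in the loss was not tested.

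**Figure D5:**
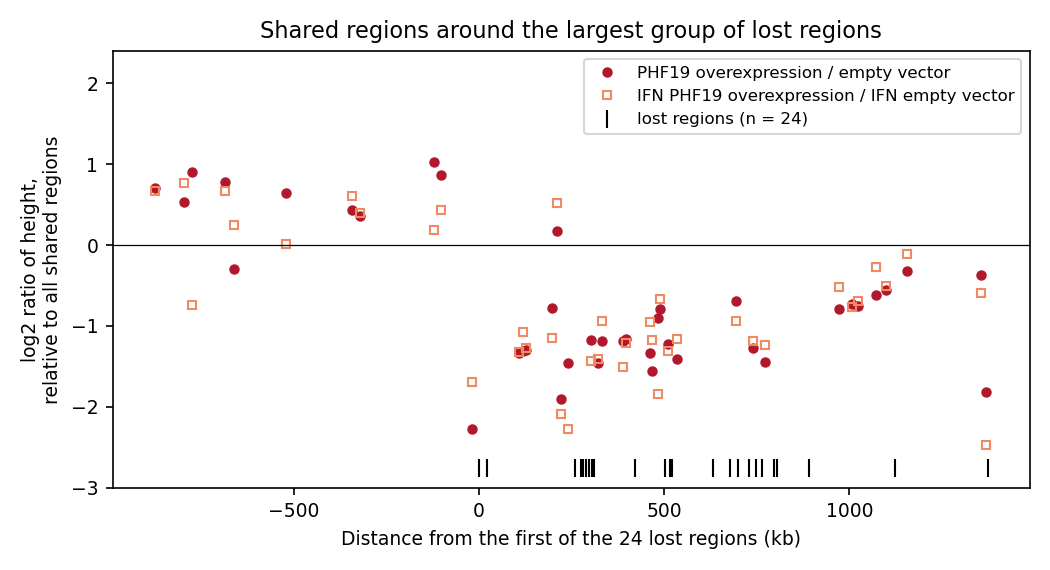
Log2 ratio of height, relative to all shared regions (y axis), of regions with a peak in all 4 libraries around the largest group, by distance from the first of its 24 lost regions (x axis, kb), for both pairs; ticks mark the lost regions. Of 29 shared regions inside the group 28 lie below 0 in each pair, and the medians are -1.18 and -1.17.

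Other groups differed in how their shared regions stood. On chromosome 2, between ID2, an inhibitor of differentiation factors, and IAH1, 12 of 73 regions were lost while 49 shared regions had medians of 0.43 and 0.50, above 0. Only 1 of these 12 had a margin of at least 2, and 5 had margins below 1. Between SYNPO and SLC36A1 on chromosome 5, a group with TNIP1, 7 of 36 were lost and 29 shared regions stood at -0.54 and -0.58. None of these 7 had a margin of at least 2, and 2 were below 1. Downstream of MYC, the growth regulator often rearranged in myeloma, 7 of 21 were lost between 59782 and 530816 bp from the gene, 3 with a margin of at least 2 and 1 below 1, and 10 shared regions stood at -0.29 and -0.30. Inside TJP1, a tight junction scaffold, all 5 regions of the minimum height were lost, each with a margin of at least 2 and heights of 1.21 to 2.23 per M in empty vector and 1.15 to 2.69 in IFN empty vector. No region there was shared by all 4 libraries. Most of these lost regions had 1 shared region within 250 kb, at -0.87 for PHF19 overexpression and -1.55 for IFN PHF19 overexpression.

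Over all lost regions the median of the neighbourhood was near 0. Within 250 kb, 15084 shared regions had a median log2 ratio of -0.04 (rank-based interval -0.05 to -0.04) for PHF19 overexpression and -0.02 (-0.03 to -0.02) for IFN PHF19 overexpression, and 54.4% and 52.8% lay below 0. Without centring the medians were -0.16 and 0.11, so the direction turned in the IFN pair. Around the 590 lost regions of margin 2 or more the medians were -0.06 and -0.05. Neighbours with a median below -0.5 in both pairs surrounded 123 of the 1965 lost regions that had any. Of these 123, 44 were on chromosome 5 and 26 on chromosome 4, including 23 in the group above. No such count was made around kept regions. Taken singly, 12.5% and 14.1% of the 15084 neighbours lay below -0.5 in PHF19 overexpression and IFN PHF19 overexpression. Over all shared regions the shares were 11.4% and 13.2%.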

How the data were processed

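ATAC-seq peak lists of 4 AMO1 libraries were used, 1 per group. Per the file headers, the authors ran MACS2 2.1.2 on the paired fragments of each library with no control, kept duplicates, allowed several summits and set q to 0.01. Trimmomatic 0.38, bcl2fastq 2.17 and the build hg38 come from the submitters' processing notes, and no aligner or read filter is named there. The pileup deposited is unscaled signal at the summit, fold enrichment is a deposited ratio to the local background, and −log10 p-values and −log10 q-values are deposited too. Fragments can be copies of one molecule, as duplicates stayed in.

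Peaks were merged at an overlap of at least 1 bp with Python 3.11.15 and pandas 2.3.3, and heights were divided by header fragments in M. Positions used 19218 protein-coding genes of RefSeq on GRCh38.p14, without those on separate scaffolds, and 35116 promoter entries, 34943 of them at distinct positions, with chromosome 8 left out. Motifs were searched there, since no genome was used, in place of the planned summit windows. Intervals are at 95%, exact binomial for shares, exact Poisson for fragments and rank-based for medians. Steps were tested on simulated data. Genes named are the 25 tallest lost regions, and examples among those at gene ends, in the lists and in groups; those of largest margin, their comparison under a height of 2 and the margin itself were chosen after seeing the data. The members and lists were chosen with earlier results of these data known. Results at 2 loci are not reported here.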

Additional observations from a re-analysis of the deposited data

Results flagged for a closer look

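Chromosome X, which the selection left out, held 42 further regions that met it, of 924 with a peak and the minimum height in both empty vector libraries, or 4.55%. It is listed because the comparisons above did not use this chromosome. The share is below the 5.79% of chromosomes 1 to 22 and within the range of single chromosomes there, 4.05% to 7.08%.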

How the results depend on the processing

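Against 2044 lost regions, a height minimum of 0.6, 1, 1.5 or 2 gave 3190, 1329, 572 and 305, the unprefixed pair alone gave 4122 and the IFN pair alone 5984. Applied without the PHF19 overexpression, IFN PHF19 overexpression, empty vector or IFN empty vector library, alternatives added after seeing the data, the rule gave 3166, 3390, 4308 and 2566. Margins of at least 1.5, 2 and 3, added after seeing the data, left 1290, 590 and 75. The other 10 settings gave between 1441 and 2615. The share at gene ends was 4.50% with a window of 500 bp, 14.0% with 3000 bp, and 7.87% and 10.2% at height minimums of 1.5 and 2. The median distance to a gene end was 20204, 14367.5 and 8559 bp at height minimums of 1, 1.5 and 2, and 36609.5 bp at margins of at least 2. For neighbours within 100 kb, 1 Mb and 2.5 Mb the median log2 ratio was -0.0523, -0.0147 and -0.00507 for PHF19 overexpression and -0.0411, -0.00693 and -0.00339 for IFN PHF19 overexpression. Without centring it was -0.16, and 0.11 in the IFN pair, where the sign turned because the centre is 0.14. E-box letters were in 38.9% of windows of 200 bp, and MEF2 letters in 0% under a height of 2. Of 66 alternative values, 36 stayed within the limits set. No paired analysis was possible because no result comes from a test, each group holding 1 library; values are given for both vector pairs. Depth limits the PHF19 overexpression lists, whose lowest peaks had 8 fragments.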
